A study of Mus musculus with 6 samples.

Results

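The genes described here are the Wnt ligands, their receptors and coreceptors, the secreted antagonists, the R-spondin branch, and the Axin and Tcf/Lef genes, measured in MEFs, fibroblasts cultured from mouse embryos. Members were chosen by gene symbol (Wnt, Fzd, Lrp5/6, Ror, Sfrp, Dkk, Wif1, Notum, Rspo, Lgr4-6, Znrf3, Rnf43, Axin, Tcf7, Tcf7l1, Tcf7l2, Lef1), which gave 52 of the 17092 genes in the table. The choice was made with earlier results of these data known. The libraries fall into WT and Aff3ir-ORF2-/- (titled KO in the labels), 3 for each genotype, and the labels name no treatment. By the study's methods, the line came from Cas9 editing in zygotes and was bred to homozygosity, so the deletion is in every cell. The labels give no age, strain or sex for the embryos. Nothing says that the libraries of a genotype came from separate embryos or cultures, so p-values measure the spread between these libraries, which may be technical. Aff3ir itself was not analysed here, and its host gene Aff3 had 406, 406 and 418 counts in WT against 229, 186 and 209 in Aff3ir-ORF2-/- libraries.

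Wnts are lipid-modified secreted proteins that bind a Frizzled receptor together with an Lrp5/6 coreceptor, which keeps beta-catenin from being degraded in the Axin complex and lets it act with Tcf/Lef factors on target genes. Other Wnts signal through Frizzled and Ror receptors without beta-catenin, on cell polarity and movement. R-spondins, bound to Lgr receptors, hold back the ligases Znrf3 and Rnf43, which remove Frizzled from the surface, while Sfrp, Dkk, Wif1 and Notum act outside the cell against Wnts. In fibroblasts the pathway is known for its part in proliferation, matrix production and the choice between mesenchymal fates.

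Values are counts per gene and library, or counts scaled to library size by TMM (CPM), and levels of different genes are compared only as CPM per kilobase of exon. A gene was called when edgeR's quasi-likelihood test gave a Benjamini-Hochberg adjusted p under 0.05 with at least a 1.5-fold change, and SE is the standard error of the log2 fold change (Aff3ir-ORF2-/- over WT). Library totals were 17435133 to 17726034 in WT and 18209421 to 18252330 in Aff3ir-ORF2-/-, so that 3 counts, taken as the detection floor, were 0.161 to 0.174 CPM. All 12 fibroblast markers were tested, with a summed level of 21650 to 21670 CPM in WT and 14290 to 19340 CPM in Aff3ir-ORF2-/- libraries, where 3 were called higher and 1 lower. All 14 tested macrophage markers of a list of 15 were higher in Aff3ir-ORF2-/-, with a summed level of 22.2 to 24.9 CPM in WT and 1316, 1831 and 2252 CPM in Aff3ir-ORF2-/- replicates 1, 2 and 3. Of these markers C1qa and C1qb were at 0 in every WT library. Aif1, the marker that was not tested, was also at 0 in WT and had only 1, 3 and 5 counts in Aff3ir-ORF2-/- libraries. The part of macrophages in the results below was not tested. The 4 smooth muscle markers were also all higher, from 4155 to 4256 CPM in sum in WT to 7027 to 7706 CPM in Aff3ir-ORF2-/-. Summed levels were also higher in every Aff3ir-ORF2-/- library for skeletal muscle (86.2 to 88.5 against 265 to 375 CPM), neural and glial (155 to 161 against 180 to 231 CPM), adipocyte (36.2 to 38.2 against 48.0 to 56.8 CPM) and endothelial markers (7.95 to 8.87 against 16.5 to 21.3 CPM) and lower for cartilage and bone markers (70.6 to 72.1 against 49.1 to 66.6 CPM), while those of epithelial markers overlapped. Within these lists, calls went both ways for neural and glial (4 higher, 1 lower of 6 tested), endothelial (3 higher, 1 lower of 5) and cartilage and bone markers (1 higher, 2 lower of 4), and upward for 2 of 2 skeletal muscle and 2 of 4 adipocyte markers. The skeletal muscle calls were Des and Acta1, while Myf5 and Myh3 were at or under 3 counts in every library. The adipocyte calls were Fabp4 and Cebpa, while Adipoq and Plin1 were at or under 3 counts and Pparg was not called (log2 fold change -0.58). Nes made up most of the neural and glial sum, with means of 120 of 157 CPM in WT and 188 of 213 CPM in Aff3ir-ORF2-/-. The part of these cell types was not tested either. Fewer cells of a type and less RNA per cell cannot be told apart in bulk RNA.

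Of the 52 members, 40 had enough counts to be tested. In Aff3ir-ORF2-/- MEFs 12 were called higher (30.0% of the tested members, against 14.3% of the 13075 genes tested) and 3 lower (7.5% against 7.32%). The higher members were Wnt10a, Wnt10b, Wnt11, Wnt16, Rspo2, Rspo3, Lgr5, Rnf43, Ror1, Dkk2, Dkk3 and Tcf7, and the lower ones were Wnt5a, Wnt2b and Sfrp2. The number called lower was 5 without Aff3ir-ORF2-/- replicate 1 (with Znrf3 and Tcf7l2) and 6 without replicate 3 (with these and Wnt2). Over all tested genes, 957 were called lower, and 970 and 1034 in these 2 fits. A further 15 passed the adjusted p with less than a 1.5-fold change, 9 of them upward and 6 downward, and 10 did not pass. Of all 13075 tested genes, 4622 passed in this way, 1973 upward and 2649 downward, and 5631 did not pass. Counts after scaling did not overlap between genotypes for 31 members (77.5%), against 66.0% of all tested genes. The median log2 fold change was 0.38 over the tested members and 0.01 over all tested genes.

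Wnt10a and Rnf43 passed the count filter only through the Aff3ir-ORF2-/- libraries and Wnt2 only through the WT libraries. Among the 37 members that passed in both genotypes, 10 were called higher and 3 lower, with a median log2 fold change of 0.30. Over all genes that passed in both, 11.4% were called higher and 7.05% lower. The 12 members that were not tested were 5 Wnt ligands (Wnt3, Wnt6, Wnt7a, Wnt7b and Wnt8a), Fzd9, Fzd10, Rspo1, Rspo4, Sfrp4, Dkk1 and Wif1, none with more than 21 counts in a library.

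**Figure D1:**
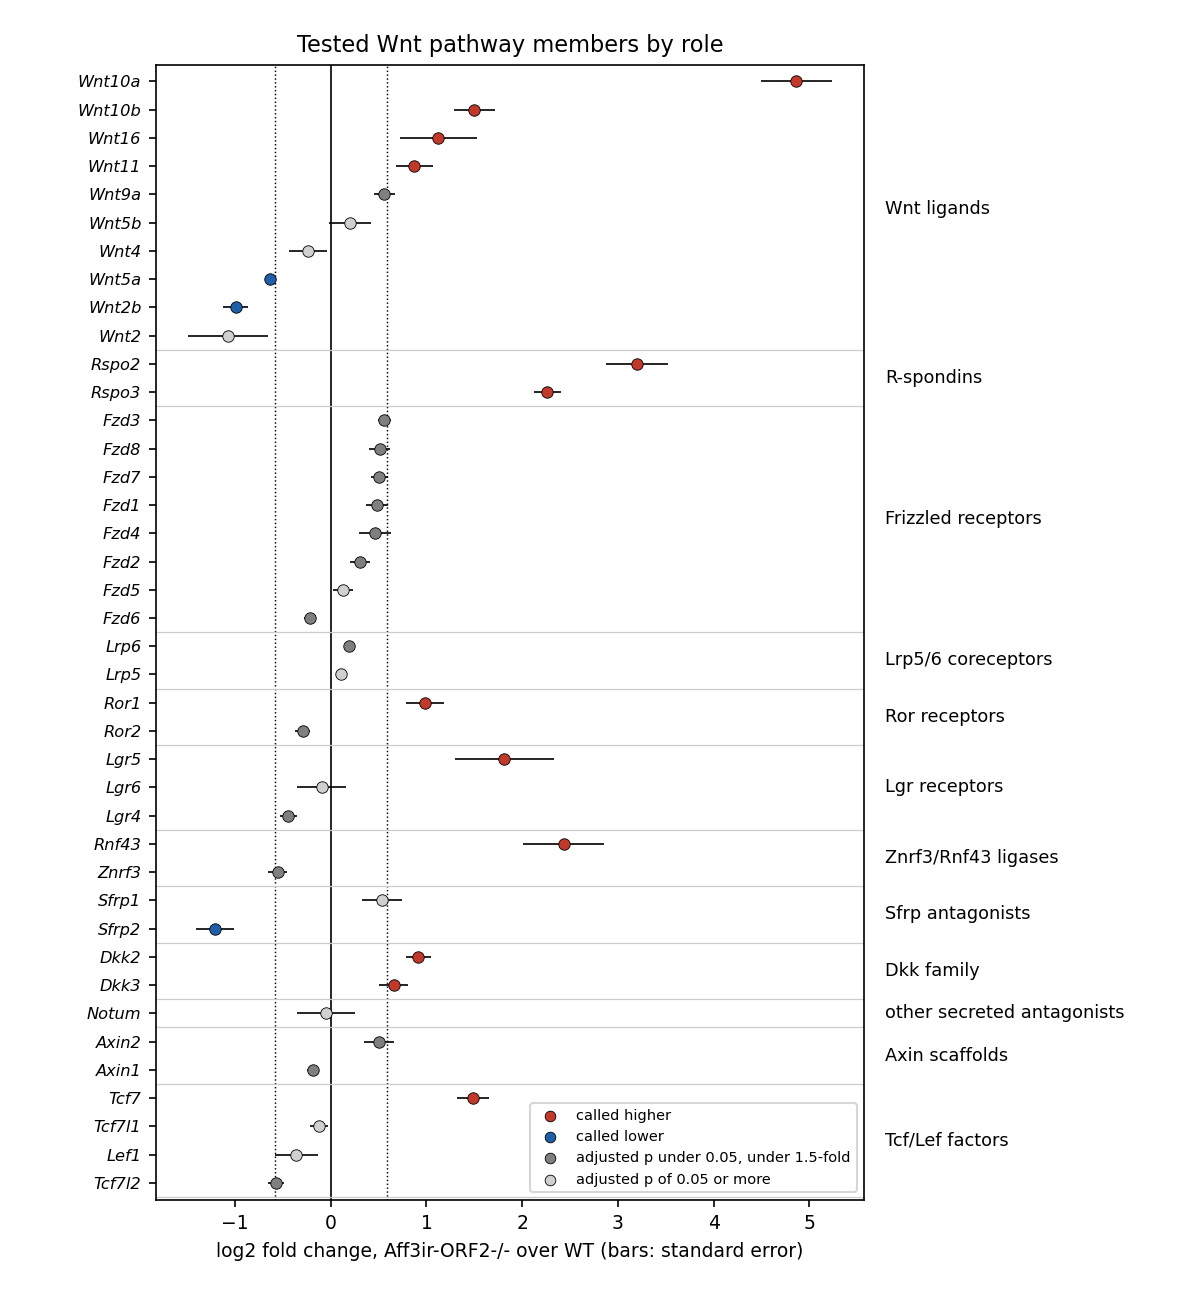
Log2 fold change of the 40 tested members (x axis, Aff3ir-ORF2-/- over WT), grouped by role, with bars for the standard error and dotted lines at 1.5-fold. Both tested R-spondins and both tested Dkk genes lie right of the upper line, while all 8 tested Frizzled receptors lie between the lines.

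Among the ligands, the most abundant one fell and several rare ones rose. Wnt5a (NCBI Gene ID 22418), the best known ligand of the beta-catenin-independent branch, had 2840, 2846 and 2896 counts in WT against 2028, 1934 and 1884 in Aff3ir-ORF2-/- libraries. The 3 Aff3ir-ORF2-/- libraries lay below the 3 WT libraries, with a narrow spread in each genotype. The level went from 164 ± 2.0 to 106 ± 4.72 CPM (SD, n = 3), which gave a log2 fold change of -0.63 (SE 0.05, adjusted p = 1.15e-05), the smallest change among the lower members. Wnt2b (NCBI Gene ID 22414), which signals through beta-catenin, had 127, 146 and 167 counts in WT against 81, 79 and 73 in Aff3ir-ORF2-/-, again without overlap. Its log2 fold change was -0.99 (SE 0.13, adjusted p = 0.000309). Its close relative Wnt2 had 28, 26 and 38 counts in WT against 18, 5 and 23 in Aff3ir-ORF2-/-. These did not overlap either, but with 5 counts in replicate 2 the Aff3ir-ORF2-/- libraries were far apart, and the log2 fold change of -1.07 (SE 0.42) missed the threshold (adjusted p = 0.0546). Wnt2 was called lower in 3 of 13 other settings, which were the replicate block (adjusted p = 0.0179), limma voom (0.0359) and the fit without Aff3ir-ORF2-/- replicate 3 (0.0227), and its adjusted p reached 0.179 in the others.

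Wnt10a (NCBI Gene ID 22409), a ligand known for its part in skin, hair and tooth development, had 1 count in each WT library and 33, 38 and 32 in the Aff3ir-ORF2-/- libraries. WT lay below the detection floor, so the level was at least 10.8-fold higher in Aff3ir-ORF2-/-, computed against 3 counts in each WT library (adjusted p = 1.50e-05). Wnt10a passed the count filter only through the Aff3ir-ORF2-/- libraries, so the filter favoured a difference in this direction. Its neighbour on chromosome 1, Wnt6, had 0, 1 and 0 counts in WT and 0 in every Aff3ir-ORF2-/- library. Wnt10b (NCBI Gene ID 22410), a beta-catenin ligand known to hold back fat cell formation, had 19, 21 and 14 counts in WT against 59, 49 and 54 in Aff3ir-ORF2-/-. All Aff3ir-ORF2-/- libraries were above all WT libraries, with a log2 fold change of 1.5 (SE 0.22, adjusted p = 0.000438). Wnt11 (NCBI Gene ID 22411), a ligand of the beta-catenin-independent branch that guides cell movements in the embryo, had 21, 23 and 22 counts in WT against 47, 41 and 40 in Aff3ir-ORF2-/-. The log2 fold change was 0.87 (SE 0.19, adjusted p = 0.00444), without overlap.

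Wnt16 (NCBI Gene ID 93735), known for its part in cortical bone, had 18, 10 and 23 counts in WT against 30, 61 and 27 in Aff3ir-ORF2-/-. The genotypes did not overlap, but replicate 2 of each stood apart from the other two. The log2 fold change was 1.12 (SE 0.40, adjusted p = 0.0385), and the call was lost without WT replicate 1, WT replicate 2 or Aff3ir-ORF2-/- replicate 2, with adjusted p up to 0.131 and a log2 fold change of 0.67 without the last. Wnt9a, which acts in joint formation, had 107, 107 and 109 counts in WT against 167, 186 and 150 in Aff3ir-ORF2-/-, which passed the adjusted p with a 1.47-fold difference, under the fold threshold (adjusted p = 0.00252), and reached it in 3 of 14 other settings. Wnt4, the ligand with the second highest level, had 254, 279 and 222 counts in WT against 285, 157 and 233 in Aff3ir-ORF2-/-. These overlapped, with a log2 fold change of -0.24 (SE 0.19, adjusted p = 0.323). Wnt5b, the closest relative of Wnt5a, had a log2 fold change of 0.20 (SE 0.22, adjusted p = 0.467).

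**Figure D2:**
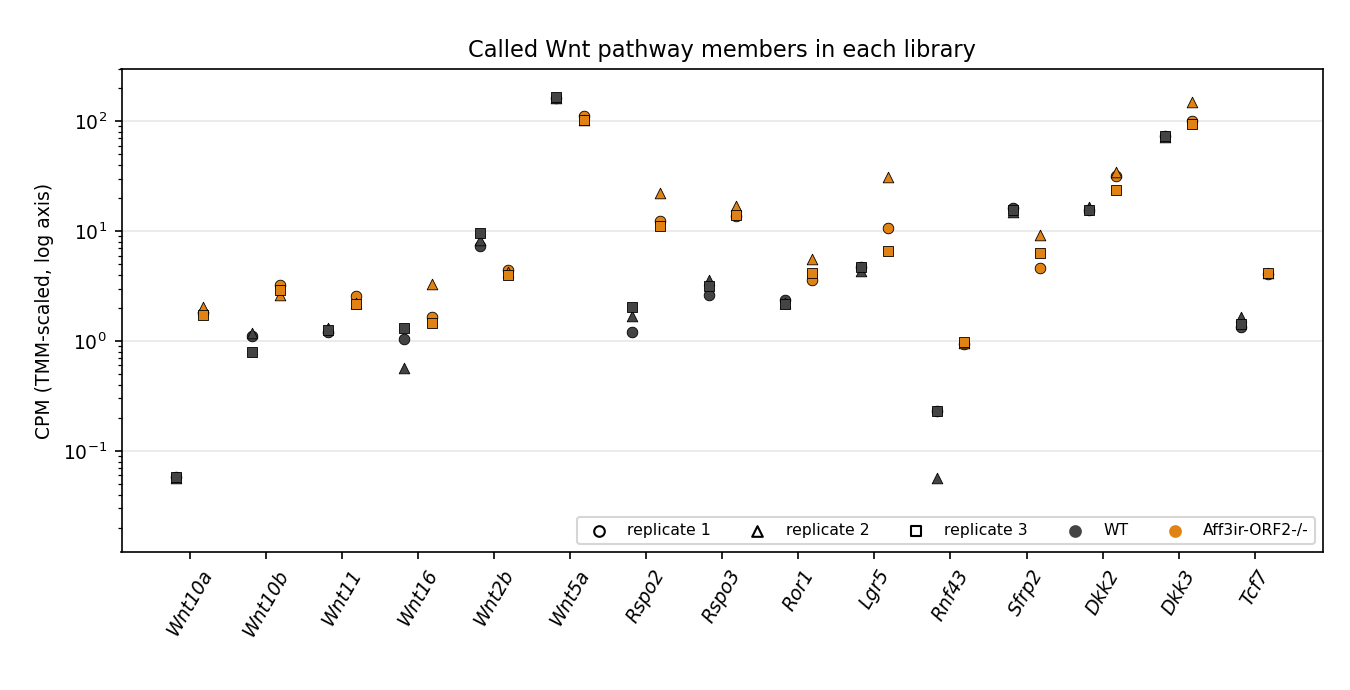
Level of the 15 called members in each library (CPM on a log axis), dark for WT and orange for Aff3ir-ORF2-/-, with circles, triangles and squares for replicates 1, 2 and 3. No gene has a WT point among its Aff3ir-ORF2-/- points. The triangle of Aff3ir-ORF2-/- replicate 2 lies above the other 2 libraries of its genotype for Lgr5, Rspo2, Dkk3 and Wnt16. It is also the highest of its genotype for Rspo3, Ror1, Dkk2, Tcf7, Wnt10a and Sfrp2.

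Per kilobase of exon, Wnt5a was the most abundant ligand in both genotypes, at 23.4 ± 0.29 CPM per kilobase in WT and 15.1 ± 0.67 in Aff3ir-ORF2-/- (SD, n = 3). In WT it was followed by Wnt4 (3.44 ± 0.38), Wnt2b (2.54 ± 0.33), Wnt9a (1.86 ± 0.02), Wnt5b (1.00 ± 0.25) and Wnt2 (0.780 ± 0.16), the last pair within their spread of each other. In Aff3ir-ORF2-/- the order was Wnt5a, Wnt4 (2.92 ± 0.87), Wnt9a (2.74 ± 0.27), Wnt2b (1.27 ± 0.07) and Wnt5b (1.15 ± 0.18), with Wnt4 and Wnt9a within their spread of each other, and Wnt2b and Wnt5b likewise. The share of Wnt5a in the summed ligand level per kilobase was 69.3%, 67.6% and 69.0% in the WT libraries and 56%, 58.8% and 56.8% in the Aff3ir-ORF2-/- libraries. Wnt10a, Wnt10b, Wnt11 and Wnt16 each stayed at or under 3.37% of that sum in every library. The summed level of the 15 ligands was 201 ± 1.02 CPM in WT and 145 ± 8.40 CPM in Aff3ir-ORF2-/-.

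**Figure D3:**
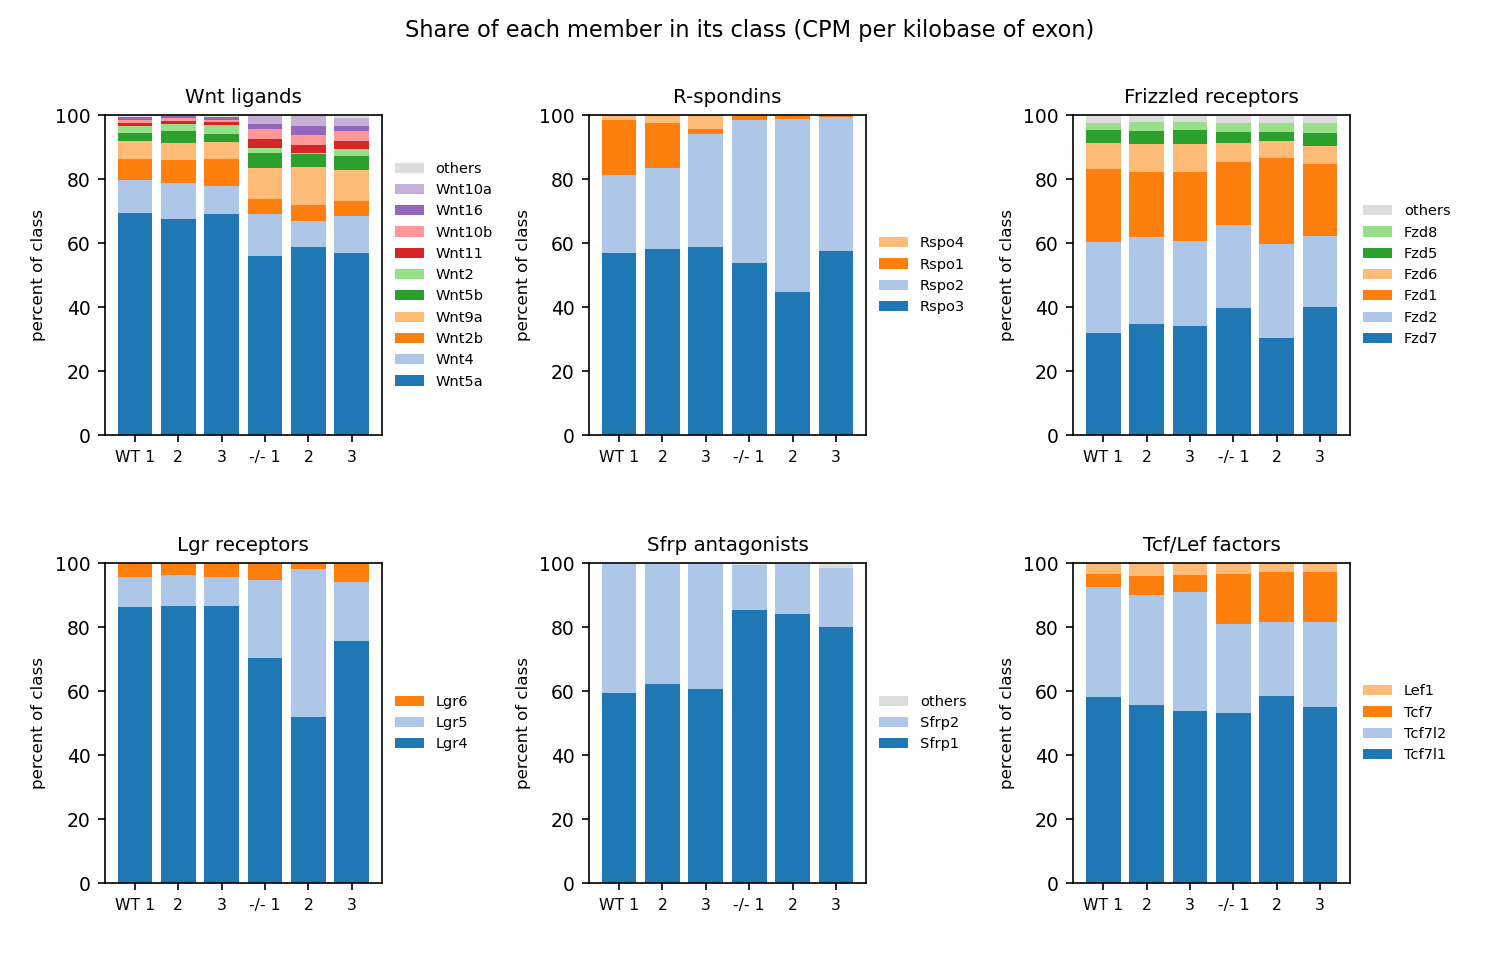
Share of each member in the summed level of its class (y axis, percent of CPM per kilobase of exon) in the 3 WT and 3 Aff3ir-ORF2-/- libraries, with members under 2% in every library drawn together as others. The Wnt5a share drops from 67.6% or more to 58.8% or less, and the Lgr5 share rises from under 10% to 18.5%, 24.2% and 46.3%.

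The R-spondins showed the largest increases among the members that passed the filter in both genotypes. Rspo2 (NCBI Gene ID 239405) had 21, 30 and 36 counts in WT against 227, 414 and 206 in Aff3ir-ORF2-/-. Every Aff3ir-ORF2-/- library was several times above the highest WT library, and replicate 2 was the highest of them. The level went from 1.66 ± 0.42 to 15.3 ± 6.02 CPM (SD, n = 3), which gave a log2 fold change of 3.20 (SE 0.32, adjusted p = 6.13e-05) that was 2.82 without Aff3ir-ORF2-/- replicate 2. Rspo3 (NCBI Gene ID 72780), which is also known for blood vessel development, had 45, 63 and 55 counts in WT against 252, 316 and 260 in Aff3ir-ORF2-/-. Its level went from 3.11 ± 0.49 to 15 ± 1.72 CPM, a log2 fold change of 2.26 (SE 0.14, adjusted p = 5.50e-06), with no overlap and a tighter spread than Rspo2. Rspo1 had 8, 9 and 1 counts in WT against 3, 3 and 1 in Aff3ir-ORF2-/-, and Rspo4 had 1 to 3 counts in every library. Per kilobase, Rspo2 and Rspo3 made up 81.3%, 83.6% and 94% of the summed R-spondin level in WT and 98.6% to 99.3% in Aff3ir-ORF2-/-. The summed CPM was 4.35 to 5.92 CPM in WT and 25.5 to 39.5 CPM in Aff3ir-ORF2-/-.

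The R-spondin receptors and the ligases they act on did not move one way. Lgr5 (NCBI Gene ID 14160), a stem cell marker and itself a target of the pathway in several tissues, had 81, 76 and 82 counts in WT against 194, 576 and 122 in Aff3ir-ORF2-/-. All Aff3ir-ORF2-/- libraries were above WT, but they differed among themselves far more than the WT libraries did. The level was 4.57 ± 0.22 CPM in WT and 16.1 ± 13 CPM in Aff3ir-ORF2-/-, with a log2 fold change of 1.81 (SE 0.52, adjusted p = 0.0159). Without Aff3ir-ORF2-/- replicate 2 it was 0.91 (adjusted p = 0.00139), a 1.89-fold change in place of 3.52-fold, and without any one WT library the log2 fold change was 1.77 to 1.84 and the call was lost, with adjusted p of 0.0511 to 0.0556. Lgr4, the most abundant receptor of the family, had 796, 739 and 828 counts in WT against 606, 693 and 536 in Aff3ir-ORF2-/-. It was lower in all Aff3ir-ORF2-/- libraries but by less than 1.5-fold, with a log2 fold change of -0.44 (SE 0.09, adjusted p = 0.00284). Lgr6 had 51, 43 and 55 counts in WT against 60, 31 and 56 in Aff3ir-ORF2-/-, which overlapped (adjusted p = 0.767).

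Rnf43 (NCBI Gene ID 207742) had 4, 1 and 4 counts in WT against 17, 18 and 18 in Aff3ir-ORF2-/-. The genotypes were apart, at low counts, with a log2 fold change of 2.43 (SE 0.42, adjusted p = 0.00122). Rnf43 passed the count filter only through the Aff3ir-ORF2-/- libraries, where it was high, so the filter itself favoured a difference in this direction. Its relative Znrf3 was lower, with 397, 409 and 379 counts in WT against 309, 243 and 299 in Aff3ir-ORF2-/-, a log2 fold change of -0.55 (SE 0.10, adjusted p = 0.00149), under 1.5-fold. It was over 1.5-fold, and so called, without WT replicate 3, Aff3ir-ORF2-/- replicate 1 or Aff3ir-ORF2-/- replicate 3, with log2 fold changes down to -0.63. Per kilobase, Znrf3 remained the more abundant ligase, at 2.87 ± 0.11 in WT and 1.96 ± 0.27 in Aff3ir-ORF2-/-, against 0.0380 ± 0.02 and 0.212 ± 0.01 CPM per kilobase for Rnf43. The sum of both was 21.9 to 23.3 CPM in WT and 14 to 17.9 CPM in Aff3ir-ORF2-/-.

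None of the 8 tested Frizzled receptors was called, although 7 passed the adjusted p. Passing was common, as 2822 of all 13075 tested genes were called and 4622 more passed with less than a 1.5-fold change. Fzd7, the most abundant per kilobase in both genotypes, had 1720, 1889 and 1791 counts in WT against 2870, 2329 and 2896 in Aff3ir-ORF2-/-. The genotypes were apart, with a level of 103 ± 3.90 CPM in WT and 147 ± 18.9 CPM in Aff3ir-ORF2-/- and a 1.42-fold difference (log2 0.51, SE 0.09, adjusted p = 0.00115), which was 1.52-fold, over the fold threshold, without Aff3ir-ORF2-/- replicate 2. Fzd2 had 1243, 1189 and 1124 counts in WT against 1513, 1817 and 1307 in Aff3ir-ORF2-/-, and while the counts were apart, the scaled levels overlapped (log2 fold change 0.30, SE 0.10, adjusted p = 0.0319). Fzd1, Fzd3, Fzd4 and Fzd8 also passed upward, with log2 fold changes of 0.49, 0.56, 0.46 and 0.51. The scaled levels of Fzd4 overlapped, and its adjusted p of 0.0432 was not under 0.05 in 7 of 14 other settings, reaching 0.149, while Fzd2 did not pass in 4. Fzd3, Fzd4 and Fzd8 were each over 1.5-fold, and called, in 1 or 2 of the settings. Fzd6, a receptor of the polarity branch, was the one that passed downward, with 422, 463 and 443 counts in WT against 403, 399 and 401 in Aff3ir-ORF2-/- (log2 fold change -0.22, SE 0.06, adjusted p = 0.0124). Fzd6 did not pass in 2 of 14 other settings, the DESeq2 Wald test (adjusted p = 0.0634) and the fit without WT replicate 2 (0.0583). Fzd5 did not pass (adjusted p = 0.318), though it did without Aff3ir-ORF2-/- replicate 2 (log2 fold change 0.24, adjusted p = 0.0156). The summed level of the 10 receptors was 297 to 307 CPM in WT and 394 to 402 CPM in Aff3ir-ORF2-/-, so the sum varied less between the Aff3ir-ORF2-/- libraries than single receptors such as Fzd1 and Fzd7 did.

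The coreceptors changed little. Lrp6 had 2058, 2190 and 2164 counts in WT against 2498, 2735 and 2479 in Aff3ir-ORF2-/-, a 1.14-fold difference without overlap (log2 fold change 0.19, SE 0.05, adjusted p = 0.00828). Lrp5 had 1557, 1555 and 1491 counts in WT against 1745, 1670 and 1806 in Aff3ir-ORF2-/-, which overlapped after scaling (log2 fold change 0.10, SE 0.05, adjusted p = 0.105). The Ror receptors, tyrosine kinase-like receptors of Wnt5a, moved in opposite directions. Ror1 (NCBI Gene ID 26563) had 41, 39 and 38 counts in WT against 66, 105 and 76 in Aff3ir-ORF2-/-, with a log2 fold change of 0.98 (SE 0.20, adjusted p = 0.00294) and no overlap. Ror2 had 688, 731 and 676 counts in WT against 530, 666 and 610 in Aff3ir-ORF2-/-, lower by less than 1.5-fold (log2 fold change -0.29, SE 0.08, adjusted p = 0.0114). Ror2 made up 96.2% of the summed Ror level per kilobase in WT on average and 91.3% in Aff3ir-ORF2-/-.

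Of the Sfrp and Dkk genes, Sfrp2 was called lower, and Dkk2 and Dkk3 were called higher. Sfrp2 (NCBI Gene ID 20319), a soluble Frizzled-like protein that binds Wnts, had 281, 261 and 274 counts in WT against 85, 172 and 116 in Aff3ir-ORF2-/-. All Aff3ir-ORF2-/- libraries were below WT, and replicate 2 was nearest to it. The level went from 15.6 ± 0.73 to 6.74 ± 2.31 CPM (SD, n = 3), which gave a log2 fold change of -1.21 (SE 0.20, adjusted p = 0.000861) that was -1.51 without replicate 2. Sfrp1, the most abundant of the family, had 912, 938 and 928 counts in WT against 1112, 2046 and 1099 in Aff3ir-ORF2-/-. It was above WT in all 3 libraries, with replicate 2 far above the other two, and missed the threshold (log2 fold change 0.53, SE 0.21, adjusted p = 0.0534). Without that library the log2 fold change was 0.18 (adjusted p = 0.00311), and without Aff3ir-ORF2-/- replicate 1 or 3 it was 0.67 (adjusted p = 0.0317) or 0.68 (adjusted p = 0.0174), both of which are calls. The adjusted p was under 0.05 in 7 of 14 other settings, the replicate block among them (0.0150), and ran up to 0.134.

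Dkk2 (NCBI Gene ID 56811), which binds Lrp5/6 and can act for or against Wnts, had 269, 294 and 271 counts in WT against 581, 641 and 440 in Aff3ir-ORF2-/-. The genotypes were apart, with a log2 fold change of 0.92 (SE 0.13, adjusted p = 0.000354). Dkk3 (NCBI Gene ID 50781), the divergent member of the family, had 1271, 1263 and 1283 counts in WT against 1839, 2801 and 1735 in Aff3ir-ORF2-/-. Its level went from 73.0 ± 1.01 to 115 ± 30.5 CPM, a log2 fold change of 0.66 (SE 0.15, adjusted p = 0.00565). Without Aff3ir-ORF2-/- replicate 2 it was 0.42, a 1.34-fold change that was under the fold threshold. Dkk1, the classical inhibitor of Lrp5/6, had 3, 0 and 0 counts in WT against 0, 2 and 0 in Aff3ir-ORF2-/-, at or under the floor. Notum, an enzyme that removes the lipid of Wnts, had 15, 21 and 13 counts in WT against 15, 14 and 21 in Aff3ir-ORF2-/-, which overlapped (adjusted p = 0.901). Wif1, a secreted Wnt binder, had 1 to 6 counts in every library.

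Inside the cell, Axin1, the scaffold of the complex that degrades beta-catenin, had 1274, 1277 and 1255 counts in WT against 1256, 1119 and 1152 in Aff3ir-ORF2-/- (log2 fold change -0.19, SE 0.06, adjusted p = 0.0214). Axin1 did not pass without WT replicate 1, 2 or 3 (adjusted p = 0.0739, 0.0633 and 0.0524). Axin2, its relative and a widely used target gene of the pathway, had 56, 46 and 46 counts in WT against 69, 83 and 70 in Aff3ir-ORF2-/-. All Aff3ir-ORF2-/- libraries were above WT, by 1.42-fold in the mean, which was under the fold threshold (log2 fold change 0.50, SE 0.16, adjusted p = 0.0250). Axin2 was called without WT replicate 1 (log2 fold change 0.62, adjusted p = 0.0277) and did not pass the adjusted p in 4 of 14 other settings, among them the fit without Aff3ir-ORF2-/- replicate 2 (0.0629). Its adjusted p ran from 0.0190 to 0.0900.

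Among the nuclear factors, Tcf7 (NCBI Gene ID 21414), which encodes TCF-1, had 23, 29 and 25 counts in WT against 74, 78 and 76 in Aff3ir-ORF2-/-. The Aff3ir-ORF2-/- libraries were close to each other and far from WT, at 4.13 ± 0.06 against 1.47 ± 0.16 CPM (SD, n = 3), which gave a log2 fold change of 1.48 (SE 0.16, adjusted p = 0.000103). Tcf7l2, which encodes TCF-4, was lower with 307, 293 and 299 counts in WT against 222, 197 and 221 in Aff3ir-ORF2-/-, a log2 fold change of -0.57 (SE 0.08, adjusted p = 0.000469), under 1.5-fold. It was called without WT replicate 2, Aff3ir-ORF2-/- replicate 1 or Aff3ir-ORF2-/- replicate 3, with log2 fold changes down to -0.61. Tcf7l1, which mostly represses and was the most abundant of the 4 per kilobase, had a log2 fold change of -0.12 (SE 0.09, adjusted p = 0.300) and Lef1, with 19 to 27 counts in every library, of -0.36 (SE 0.22, adjusted p = 0.206). The share of Tcf7 in the summed level of the 4 factors per kilobase was 4.32%, 5.78% and 5.27% in WT and 15.6%, 15.4% and 15.4% in Aff3ir-ORF2-/-.

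The promoter windows of 33 members, 9 of the 15 called ones among them, were matched by NCBI Gene ID in RefSeq (GRCm38.p6). Each window ran from 250 bases before to 50 bases after a start site. They were searched on both strands for CTTTGAT and CTTTGAA, the letters Tcf/Lef factors are known to bind, which differ only in the last base and so cannot both match at one place on one strand. CTTTGAT was in 2 of the 42 member windows (4.76%) and in 3.73% of all 32851 windows, and either was in 7.14% and 8.65%. Over tested genes alone, CTTTGAT was in 2 of 33 member windows (6.06%) and in 2.49% of 13394 windows, and either was in 6.06% and 5.76%. The 2 members with CTTTGAT were Wnt11, called higher, and Wnt5b, not called, and the one with CTTTGAA was Dkk1, which was not tested. The window of Axin2, the target gene above, held neither. The matching 1 of 2 windows of Wnt11 and 1 of 3 of Wnt5b, whose other start sites held neither, and the window of Axin2 are shown 5′ to 3′ on the gene's strand, in lower case with the match in capitals, because they hold the match in a called and in an uncalled ligand and none in the target gene. The Wnt11 match begins at position -51 from the start site and lies on the opposite strand, so that it reads in reverse complement, and the Wnt5b match begins at position -71 on the gene's own strand.
Wnt11, chr7:98834862-98835161, plus strand: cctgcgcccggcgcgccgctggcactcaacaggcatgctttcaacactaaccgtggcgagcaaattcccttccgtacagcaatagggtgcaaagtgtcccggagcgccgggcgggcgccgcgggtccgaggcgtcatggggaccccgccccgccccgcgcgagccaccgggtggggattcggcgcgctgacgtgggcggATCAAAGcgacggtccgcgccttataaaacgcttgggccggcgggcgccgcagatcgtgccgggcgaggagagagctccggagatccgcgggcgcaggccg
Wnt5b, chr6:119449337-119449636, minus strand: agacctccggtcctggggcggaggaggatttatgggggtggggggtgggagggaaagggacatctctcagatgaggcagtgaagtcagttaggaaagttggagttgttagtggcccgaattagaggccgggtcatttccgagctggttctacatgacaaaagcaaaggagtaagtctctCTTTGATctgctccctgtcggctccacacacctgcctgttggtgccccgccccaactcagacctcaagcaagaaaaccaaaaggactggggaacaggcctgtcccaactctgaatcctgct
Axin2, chr11:108920099-108920398, plus strand: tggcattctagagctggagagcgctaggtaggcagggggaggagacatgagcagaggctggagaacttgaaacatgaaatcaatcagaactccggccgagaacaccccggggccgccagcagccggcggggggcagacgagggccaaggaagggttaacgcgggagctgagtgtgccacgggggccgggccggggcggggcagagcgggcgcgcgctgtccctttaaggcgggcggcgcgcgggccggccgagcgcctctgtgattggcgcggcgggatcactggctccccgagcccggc

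Of 75 other genes of the pathway, 67 were tested and 12 were called higher (17.9%, against 14.3% of all tested genes) and 6 lower (8.96%, against 7.32%), with a median log2 fold change of 0.01, so both shares were near those over all genes. By step, the calls were 5 higher of 11 tested planar polarity genes and 1 higher and 2 lower of 7 surface binders. They were 1 higher of 9 genes of the destruction complex and 2 higher of 13 nuclear cofactors. Of 9 tested canonical target genes 1 was higher and 2 were lower. Of 8 genes for Dishevelled and its binders, 1 was called each way, the binders Nkd2 and Dact2, and none of Dvl1, Dvl2 and Dvl3. Of 3 tested antagonists 1 was called each way, and none of 2 secretion genes and 5 kinases. Ctnnb1, which encodes beta-catenin, had 11475, 11450 and 11496 counts in WT against 12485, 12505 and 13199 in Aff3ir-ORF2-/-, a log2 fold change of 0.07 (SE 0.04, adjusted p = 0.191). Apc2, a relative of the tumour suppressor Apc, had the largest change of the list, with 68, 73 and 56 counts in WT against 278, 311 and 271 in Aff3ir-ORF2-/- (log2 fold change 2.05, SE 0.12).

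Fat4, a giant cadherin of the polarity branch, had 485, 497 and 496 counts in WT against 1060, 1318 and 1423 in Aff3ir-ORF2-/- (log2 fold change 1.28, SE 0.10). Prickle2, an intracellular polarity protein, and Bcl9l, a beta-catenin cofactor, rose by log2 fold changes of 0.75 (SE 0.06) and 0.79 (SE 0.07). The cell surface proteoglycans of the glypican family moved in opposite directions, as Gpc4 had 1685, 1795 and 1759 counts in WT against 3353, 3255 and 3327 in Aff3ir-ORF2-/-, while Gpc3 had 956, 1004 and 1082 in WT and 376, 543 and 359 in Aff3ir-ORF2-/-. Their log2 fold changes were 0.85 (SE 0.04) and -1.33 (SE 0.13). Of the target genes, Myc, a driver of cell growth, had 2607, 2484 and 2479 counts in WT against 1153, 979 and 1067 in Aff3ir-ORF2-/- (log2 fold change -1.32, SE 0.07, adjusted p = 2.88e-06). Ccnd1, which encodes the G1 cyclin D1, had 5727, 5993 and 5800 counts in WT against 5272, 4103 and 4939 in Aff3ir-ORF2-/-, lower by less than 1.5-fold (log2 fold change -0.37, SE 0.09, adjusted p = 0.00647). Apcdd1 and Cthrc1, a Wnt inhibitor of the membrane and a secreted matrix protein that binds Wnt receptors, were lower by log2 fold changes of -0.95 (SE 0.11) and -0.65 (SE 0.08). Dact2, which binds Dishevelled, was lower by -1.01 (SE 0.30) with 11 to 36 counts in a library. The other called genes were Frzb, Nkd2, Tle1, Celsr3, Prickle1, Prickle3 and Msx2, higher by 0.60 to 1.00 on the log2 scale, and Tnfrsf19, lower.

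**Figure D4:**
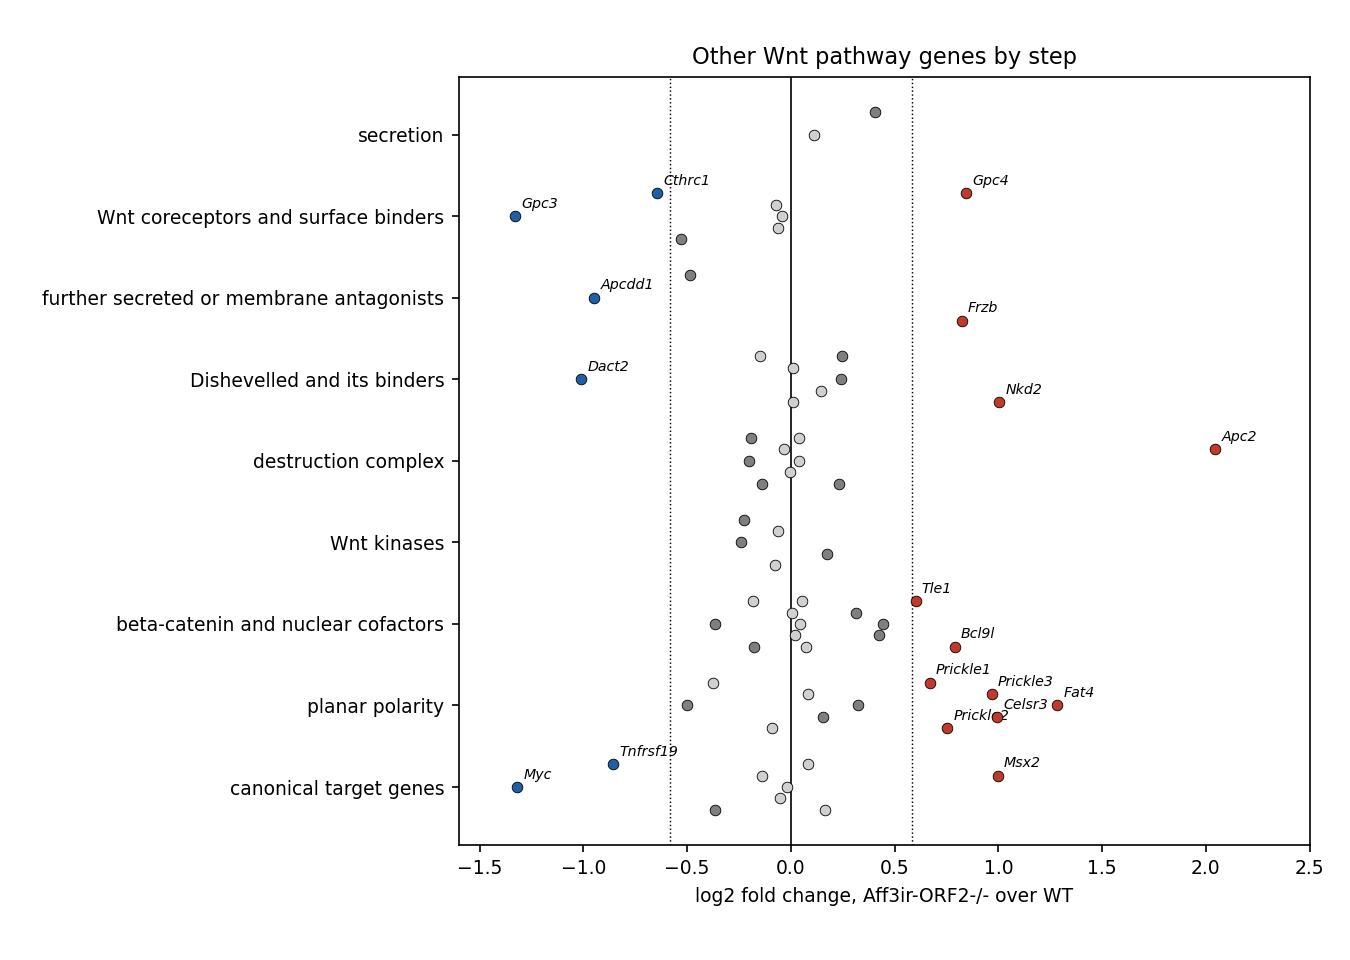
Log2 fold change of the 67 other tested pathway genes (x axis, Aff3ir-ORF2-/- over WT), 1 row for each step of the pathway, red where called higher, blue where called lower and grey otherwise, with dotted lines at 1.5-fold. Points lie on both sides of 0 in most rows, and 5 of the 12 genes called higher are in the planar polarity row.

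Aff3ir-ORF2-/- replicate 2 was the library farthest from the other two of its genotype for 25 of the 40 tested members (62.5%), against 47.5% of all tested genes. The median coefficient of variation of the members was 5.23% in WT and 11.7% in Aff3ir-ORF2-/-, against 4.39% and 7.69% over all tested genes. In the same library 10 of the 12 fibroblast markers had their highest level of the genotype and 2, Vim and S100a4, their lowest. It was also the lowest for 6 of 8 neural and glial and 4 of 6 cartilage and bone markers, and lay between the others for 12 of 15 macrophage markers. Col3a1, for example, had 28211 counts there and 10648 and 15093 in replicates 1 and 3, and the part of these cells in the members' values was not tested. Without this library the median log2 fold change of the tested members was 0.27, and 11 members were called higher and 3 lower. Over all 13169 genes tested in that fit, 1812 were called higher and 998 lower, with a median log2 fold change of 0.0008. Dkk3 and Wnt16 lost their call, and Fzd7 gained one. Lgr5, Rspo2 and Sfrp2 kept theirs, with the values given above.

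**Figure D5:**
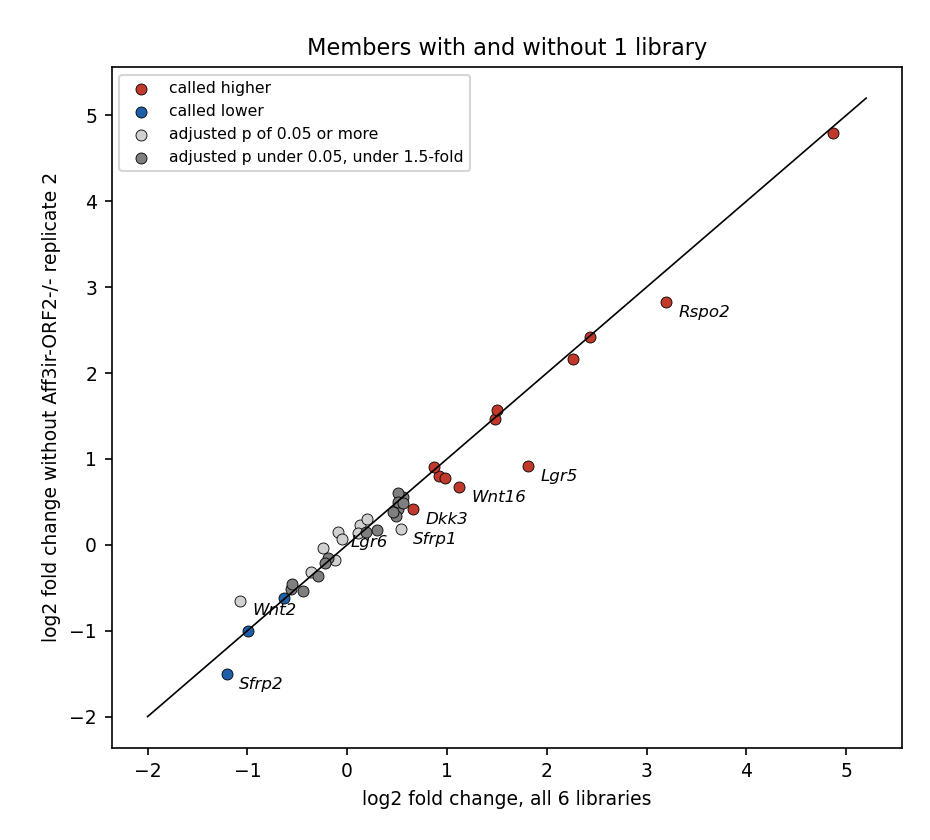
Log2 fold change of the tested members with all 6 libraries (x axis) and without Aff3ir-ORF2-/- replicate 2 (y axis), with the line of equal values and names where the 2 differ by more than 0.23. Lgr5 is farthest from the line, at 1.81 and 0.91, and Wnt10a, Rspo3 and Tcf7 lie on or near it.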

How the data were processed

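RNA-seq of WT and Aff3ir-ORF2-/- MEFs, 3 libraries each, was analysed from 1 table in which the authors deposited an estimated count per gene and library, without normalization. Reads were filtered with SOAPnuke by the study's methods. The submitters' processing notes name mm8 as the genome build, and the aligner and the counting tool are not given in the sources used here. Between 10.6% and 11.3% of a library's values were not whole, and all were rounded.

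Genes were filtered with filterByExpr (minimum count 10, minimum total 15), scaled by TMM (factors 0.989 to 1.02) and tested by the quasi-likelihood test of edgeR 4.0.16 in R 4.3.3, without covariates, with p adjusted over all 13075 tested genes. Alternatives used DESeq2 1.42.0 and limma 3.58.1. The functions were tested on simulated data. Figures were drawn with Python 3.11.15 and matplotlib 3.10.9. Exon lengths are unions of GENCODE M21 exons matched by NCBI Gene ID for all 52 members, and promoter windows and neighbours came from RefSeq.

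Members and lists were chosen with earlier results of these data known. Named are all called members, the 2 with the most counts in each role, those past 1.5-fold that missed the adjusted p, up to 5 called genes of the pathway list in each direction, and Ctnnb1, Ccnd1 and Myc. Other genes named were chosen after their values were seen. Floors cover counting error only.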

Additional observations from a re-analysis of the deposited data

How the results depend on the processing

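Per member, 14 alternatives were run, fewer where a filter removed it. By direction and adjusted p alone, 513 of 557 values were on the side of the reported ones, 26 no longer passed, 14 newly passed and 4 changed sign, all 4 in members that were not called. By both thresholds, 12 of the 15 called members kept their call in every setting. Dkk3, Lgr5 and Wnt16 lost it in 7 values, and 10 other members gained a call in 20. The changes of sign were in Lgr6 (-0.28 to 0.15 without 1 library) and Notum (-0.25 to 0.16 without 1 library).

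The number of members called higher was 12, from 11 to 14 without 1 library, 10 with at least 10 counts in every library, 8 at 2-fold and 21 with no fold threshold. The number called lower was 3, from 3 to 6 without 1 library (5 without Aff3ir-ORF2-/- replicate 1, with Znrf3 and Tcf7l2, and 6 without replicate 3, with these and Wnt2), 1 at 2-fold and 9 with no fold threshold. Other pathway genes called higher were 12, then 3 at 2-fold and 22 with no fold threshold, and those called lower were 6, then 3 and 17. Over all tested genes, those called higher were 1865, then 1102 at 2-fold and 3838 with no fold threshold, and those called lower were 957, then 318 and 3606. The members' median log2 fold change of 0.38 ran from 0.27 to 0.43 without 1 library. The median over all tested genes was 0.0433 with upper-quartile scaling, 0.0342 with library totals, 0.0012 with at least 10 counts in every library and 0.0008 to 0.0128 without 1 library. The cause of these changes was not tested, apart from the fold thresholds, which admit more or fewer genes by construction.

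Replicate numbers are shared between the genotypes. The deviations of same-numbered libraries correlated at 0.05, 0.04 and 0.02 across genes, each library correlating best with its own number, which is a hint from the data and not from the design, so the libraries were not taken as paired. With the replicate block, 12 members were called higher and 4 lower, Wnt2 being the added one, and 1870 and 975 of all tested genes. Counts were at or near the floor of 3 in WT for Wnt10a and Rnf43, and too low to be tested for 12 members.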
